A study of Homo sapiens with 24 samples.

Results

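The calbindins and S100 proteins are small proteins that bind calcium through EF-hand loops. From these families, 10 genes were followed among 58051 listed gene identifiers, namely the calbindin genes *CALB1* and *CALB2* and the S100 genes *S100A3*, *S100A4*, *S100A6*, *S100A10*, *S100A11*, *S100A14*, *S100A16* and *S100P*. They were taken by name with earlier results of these data known, and *CALB2* was chosen by its measured rise in KO clones of HCT116 and SW480 cells. Its values in these 2 contrasts are therefore a description and have no test. The levels of all 10 genes were compared between KO and WT clones of 3 cell lines, between the lines and between clones of the same genotype.

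The cells were established lines of human colorectal cancer. Of these, HT29 and SW480 carry mutations in the tumor suppressor gene *APC*, and HCT116 carries a gain-of-function mutation in *CTNNB1*, the gene for β-CATENIN. KO clones had lost exon 7 of both *CTNNB1* alleles by CRISPR/Cas9 editing, whereas WT clones came from the same procedure with their *CTNNB1* sequence kept. In HT29, WT clones 11 and 40 were set against KO clones 28 and 38. In HCT116, WT clones 4 and 6 were set against KO clones 44 and 47, and in SW480, WT clones 4 and 5 against KO clones 17 and 21. All clones were sequenced in rounds A and B without further treatment, which gave 24 libraries, 4 per line and genotype from 2 clones, and a library is named by clone and round, as in KO 28A. Each clone grew from a single sorted cell, so that a genotype of a line rests on 2 clones, and SW480 KO clones were described as becoming senescent on long culture.

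EF-hand proteins either hold calcium as buffers, as the calbindins do, or change shape upon calcium binding and then attach to other proteins, as most S100 proteins do. *CALB2* encodes calretinin, a buffer best known from neurons and mesothelium and also found in some poorly differentiated colon carcinomas, and *CALB1* encodes calbindin of neurons and kidney tubules. S100 proteins mostly act as dimers. Unlike most S100 proteins, S100A10 no longer binds calcium, and it is held in a complex with annexin A2 at membranes.

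The libraries held between 22297049 and 29068378 reads on genes, and values are normalized counts, that is reads divided by a size factor of the library. *CTNNB1* itself ranged from 5883 to 6113 in HT29 WT and from 256 to 337 in HT29 KO libraries, from 10512 to 12800 against 187 to 255 in HCT116, and from 43114 to 50940 against 839 to 1312 in SW480. *AXIN2*, a WNT target gene, was lower in KO clones in limma at an adjusted p of at most 0.0321, by a log2 difference of −5.25 ± 0.31 (SE) for HCT116, −4.74 ± 0.15 for SW480 and −3.70 ± 0.70 for HT29. Of 10 colorectal epithelial markers, between 6 and 8 were at 10 or more in every library of a group. *CDX1* was at 0 in all WT libraries, *CDX2* stayed at or below 19.9 in HT29, *LGALS4* at or below 3.68 in HCT116 and SW480, and *KRT20* at or below 3.91 in SW480. The summed level of 9 markers of other cell types was 308 to 469 in HCT116 WT and 342 to 416 in HCT116 KO, 217 to 479 in SW480 WT and 427 to 574 in SW480 KO, and 23416 to 27702 in HT29 WT and 17722 to 31473 in HT29 KO, where *LYZ* made up nearly all of it, while *PTPRC* reached no more than 4.28 in any library. The rounds of HT29 clone KO 38 differed most, since the SD across genes of the difference between rounds was 0.926, on the log2 scale. It was 0.414 for the HT29 clone with the smallest. That SD does not tell whether KO 38A or KO 38B departs. In KO 38B, 7 of the members had their highest HT29 value, while *S100A4* had 14541 in KO 38A against 46404 in KO 38B. The part of these values in the results below was not tested. In RNA from whole cultures, fewer cells that express a gene and less RNA per cell cannot be told apart.

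On GRCh37, *S100A6* (chr1:153507075-153508720), *S100A4* (chr1:153516089-153522612), *S100A3* (chr1:153519805-153521734), *S100A16* (chr1:153579362-153585621) and *S100A14* (chr1:153586731-153589462) are neighbours on the minus strand, with *S100A10* (chr1:151955391-151966335) and *S100A11* (chr1:152004982-152020383) in the same arm. *S100P* (chr4:6695605-6698897) and *CALB2* (chr16:71392616-71424339) lie elsewhere. *S100A3* is contained in the span of *S100A4* on the same strand without shared exon bases, and exons of *S100A6* overlap an opposite-strand gene in 37 bases, where a library kit without strand marking cannot separate reads. RefSeq promoter windows were available for all 8 S100 members, and their 250 bases before the start were placed on GRCh37 by an exact match that occurred 1 time each. The windows of *S100A6* at chr1:153508468-153508717 and *S100A10* at chr1:151966336-151966585, both minus strand, are shown since these genes moved in opposite directions in HCT116. The window of *S100A4* at chr1:153518283-153518532, minus strand, is shown since it belongs to the member with the widest spread between clones, and capitals mark the motif TATAAA.
S100A6: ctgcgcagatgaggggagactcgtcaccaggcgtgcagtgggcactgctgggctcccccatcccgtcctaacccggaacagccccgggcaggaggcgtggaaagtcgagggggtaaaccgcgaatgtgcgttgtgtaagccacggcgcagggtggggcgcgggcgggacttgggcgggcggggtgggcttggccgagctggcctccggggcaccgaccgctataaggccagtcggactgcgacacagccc
S100A10: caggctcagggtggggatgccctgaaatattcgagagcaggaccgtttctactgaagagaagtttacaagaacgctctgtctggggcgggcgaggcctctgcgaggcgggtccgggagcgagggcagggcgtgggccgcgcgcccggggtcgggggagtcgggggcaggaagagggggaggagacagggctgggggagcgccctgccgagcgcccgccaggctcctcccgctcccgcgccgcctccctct
S100A4: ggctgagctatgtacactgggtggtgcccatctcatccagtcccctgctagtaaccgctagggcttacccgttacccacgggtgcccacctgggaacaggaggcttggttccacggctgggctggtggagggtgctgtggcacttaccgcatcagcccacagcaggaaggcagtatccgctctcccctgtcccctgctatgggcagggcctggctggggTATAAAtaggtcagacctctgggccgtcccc
TATAAA or its complement was found in the windows of *S100A4* and *S100P* and in 10.7% of 35116 promoter windows. The TCF/LEF motifs CTTTGAT and CTTTGTT, searched on both strands, were in none of the 9 windows of the S100 members, of which *S100A16* has 2, and 1 or the other was in 6.60% of all windows. That says only that these letters are not in these bases.

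In WT clones the levels of the members, compared per kb of exon, ranged widely between genes and lines. In HT29 WT libraries the mean was highest for *S100A6*, at 38889 ± 10717 normalized counts per kb (SD, n = 4), followed by *S100A11* with 27635 ± 8980 and *S100A4* with 26547 ± 27275. The ranges of these 3 genes overlapped, and that of *S100A4* also reached down over the next 4 genes. *S100A10* (10021 ± 1817) and *S100P* (9779 ± 3916) came next and overlapped, as did *CALB2* (4203 ± 917) and *S100A16* (4081 ± 674) after them. *S100A14* (627 ± 82.4) and *S100A3* (47.8 ± 4.21) did not overlap with the genes above them, and *CALB1* was at 1.23 ± 1.16. In HCT116 WT libraries *S100A6* (13564 ± 4366) led ahead of *S100A10* (8354 ± 726) and *S100A11* (7352 ± 1435). The range of *S100A11* overlapped those of both other genes, while *S100A6* and *S100A10* did not overlap. *S100A14* (3448 ± 1689), *S100A16* (2631 ± 898) and *S100A4* (1618 ± 460) followed with overlapping ranges, then *S100A3* (138 ± 34.3), while *CALB2* (11.6 ± 6.51), *S100P* (7.88 ± 5.55) and *CALB1* (0.783 ± 0.589) were low. In SW480 WT libraries *S100A11* (25857 ± 485) was highest, ahead of *S100A4* (12621 ± 1132) and *S100A10* (11616 ± 1225), and the last 2 overlapped. *S100A6* (8116 ± 1175) came below them, then *S100A3* (2506 ± 474) and *S100A16* (2024 ± 192), which overlapped, and *CALB2* (14.8 ± 10.7), *S100P* (10.3 ± 4.78), *S100A14* (1.91 ± 0.499) and *CALB1* (0.419 ± 0.447) were low.

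**Figure D1:**
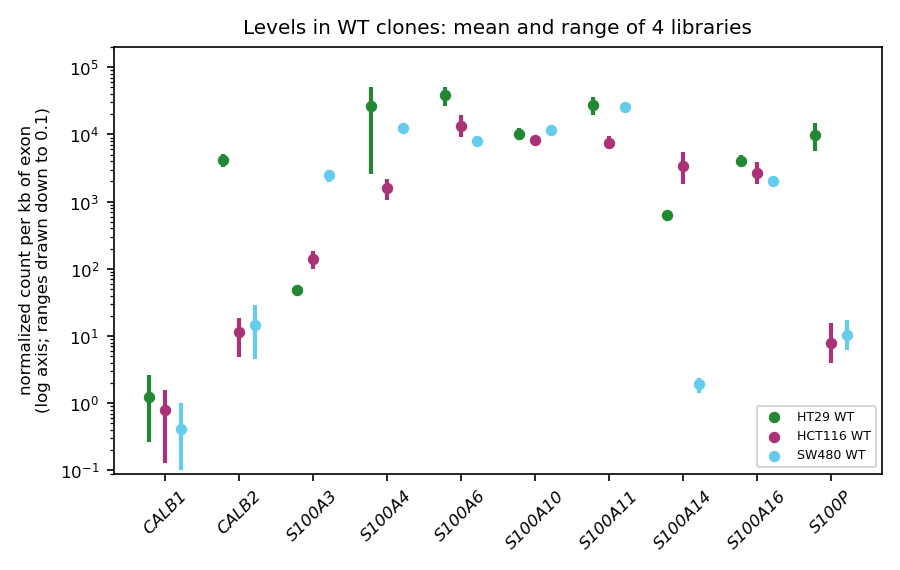
Normalized counts per kb of exon in WT clones, on a log axis, for the 10 members in each line, as the mean (point) and range (line) of 4 libraries. *CALB2* and *S100P* were high in HT29 alone, *S100A14* was near 0 in SW480 alone, and *S100A6*, *S100A10* and *S100A11* were at or above 6227 per kb in every library.

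Between the WT lines, 7 of 9 tested members differed for HT29 against HCT116, where 58.4% of all tested genes did, 5 of 9 for HT29 against SW480 (60.3% of all genes) and 5 of 9 for HCT116 against SW480 (60.5%). These counts include *S100P*, which passed the filter on low values only through HT29, where it is high. Those for the comparisons with SW480 also include *S100A14*, which passed only through HT29 and HCT116. All of these counts are given as a description. *S100P*, a ligand of the receptor RAGE first found in placenta, was abundant in HT29 WT libraries, with 2637 to 6902 normalized counts, and had 1.85 to 7.42 in HCT116 and 2.94 to 8.09 in SW480 WT libraries. It is therefore described without a test between lines. *S100A3*, which encodes a zinc- and calcium-binding protein of hair cuticle, was highest in SW480 WT, with 1631 to 2452, against 84.7 to 153 in HCT116 and 35.5 to 43.2 in HT29 WT libraries. The log2 difference of HCT116 to SW480 was −4.18 ± 0.41 (SE, limma, adjusted p = 7.93e-09), on the scale of log2 of the value plus 1. *S100A14* had 2368 to 6914 in HCT116 WT, 693 to 942 in HT29 WT and at most 3.03 in SW480 WT libraries, each SW480 WT library having 3 reads or fewer, and SW480 KO libraries had 0.941 to 4.80. *S100A4* was lower in HCT116 WT than in SW480 WT by −3.00 ± 0.93 (adjusted p = 0.00813 in limma), but not with the reads of each clone summed, where the adjusted p was 0.121.

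*CALB2* was abundant in HT29 in both genotypes and low in WT clones of the other lines. In HT29 it had 5631 and 5988 normalized counts in WT 11 (rounds A and B), 8643 and 8339 in WT 40, 4676 and 4096 in KO 28, and 7063 and 9318 in KO 38. The genotypes overlapped, and the log2 difference of KO to WT was −0.24 ± 0.28 (SE, limma, adjusted p = 0.697). In HCT116 the counts were 26.6 and 8.35 in WT 4, 31.4 and 12.4 in WT 6, 2604 and 1549 in KO 44, and 666 and 224 in KO 47. In SW480 they were 29.3 and 48.7 in WT 4, 7.72 and 14.7 in WT 5, 1560 and 1592 in KO 17, and 530 and 588 in KO 21. Thus every KO library lay above every WT library in both lines, the pattern for which the gene was chosen, with group means of 1260 ± 1051 (SD, n = 4) against 19.7 ± 11.1 in HCT116 and 1067 ± 588 against 25.1 ± 18.1 in SW480. The highest KO libraries of HCT116 and SW480 remained below the lowest HT29 library.

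**Figure D2:**
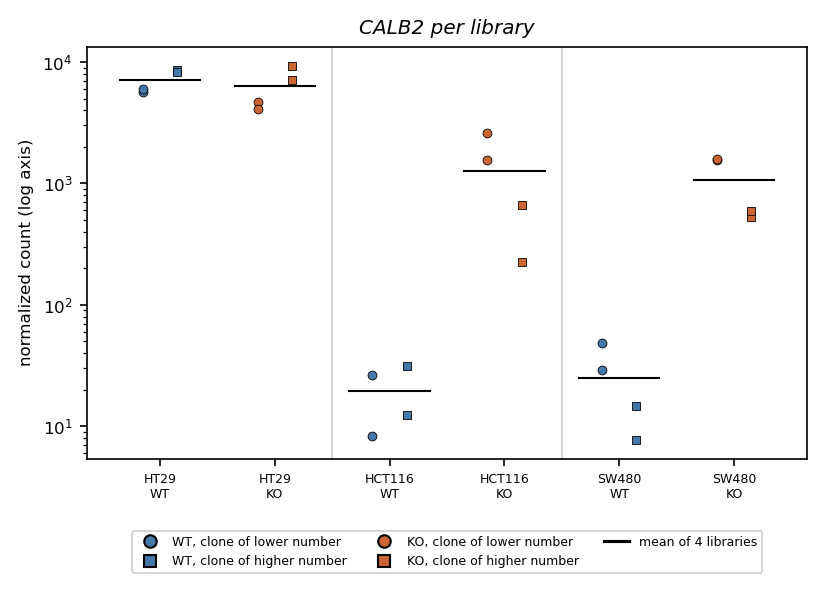
*CALB2* per library as normalized count on a log axis. Circles and squares are the clones of lower and higher number, and bars are means of 4 libraries. HT29 libraries lie between 4096 and 9318 in both genotypes, whereas KO libraries of HCT116 and SW480 lie between 224 and 2604 and their WT libraries between 7.72 and 48.7.

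Clones of the same genotype differed in *CALB2* as well. KO 44 was above KO 47 in HCT116 by a log2 difference of 2.38 ± 0.62 (SE), and KO 17 was above KO 21 in SW480 by 1.50 ± 0.27. These are a description without a test, since the choice of *CALB2* used these libraries. In WT clones of SW480 the gene had 8 to 53 reads, and it passed the filter on low values there only through the KO libraries, so that WT 4 and WT 5 are described by their counts alone. In HT29, KO 28 was below KO 38 by −0.89 ± 0.19 (SE, limma, adjusted p = 0.0183). *CALB1* had between 0 and 18.8 normalized counts in the 24 libraries and passed the filter for a test in none of the lines. Its highest value was in HT29 WT 40A, and its ranges in KO and WT overlapped in each line.

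*S100A6* and *S100A16* were higher in KO clones of HCT116 and SW480, *S100A4* was higher in SW480 and *S100A14* in HT29, *S100A3* was lower in SW480, and *S100A10* was higher in SW480 and lower in HCT116. In HT29, 1 of 9 tested members was higher in KO clones and none lower by limma at an adjusted p under 0.05 (2.08% and 0.476% of all tested genes). At an unadjusted p under 0.05 there were 6 members, a count with nothing to compare it to, since the share of all genes at that threshold was not counted. With clones as random effects, 4 members were under that threshold, beside 1363 of 14921 genes. Between the genotypes 6 of 9 did not overlap (13% of all genes). Without KO 38B the count of changed members in HT29 was 1 as well. DESeq2 called 1229 genes in HT29, among them 5 members, adding *S100P* (adjusted p = 0.0129), *S100A10* (0.018), *S100A3* (0.0333) and *S100A16* (0.0413). In HCT116, 2 of 7 were higher and 1 lower (8.05% and 5.93%), and 3 of 7 did not overlap (20.5%). In SW480, 4 of 6 were higher and 1 lower (26.1% and 22.1%), and 5 of 6 did not overlap (46.2%). With an absolute log2 fold change over 1 added, as for a DEG, 1, 2 and 2 members were called in HT29, HCT116 and SW480 (2.3%, 5.06% and 17.5% of all genes). The median log2 difference of the tested members was 1.24, 0.59 and 0.67, beside 0.03, −0.01 and −0.0042 over all tested genes. Some cell type markers did not overlap between the genotypes either, and their part in the results was not tested. Of the 10 epithelial markers, 4 were higher in HT29 KO clones without overlap and none lower, among them *KRT19* (22344 to 26094 in WT and 54825 to 95421 in KO libraries), *KRT20* (1542 to 5791 and 9565 to 21316) and *LGALS4* (3057 to 13219 and 27378 to 34041). In HCT116, 2 were higher, *EPCAM* and *CDH1*, and 2 lower, *KRT20* and *CDX2*. In SW480, 3 were lower, *EPCAM*, *KRT20* and *CDX2*, the last from 857 to 1333 in WT down to 52.7 to 165 in KO libraries. Of the 9 markers of other cell types, 1 was higher in HT29 and 1 in HCT116, while in SW480 4 were higher, among them *VWF* (9.65 to 27.4 in WT and 114 to 234 in KO libraries) and *CD14* (32.3 to 47.5 and 150.5 to 211), and 2 were lower, among them *COL1A2* (40.4 to 122 and at most 0.941). Some of these markers rest on few reads, among them *CDX1* in HT29, *PTPRC* in HCT116, and *KRT20*, *CD3E* and *PDGFRA* in SW480. Over all tested genes 13%, 20.5% and 46.2% did not overlap in HT29, HCT116 and SW480. Members with too few counts for a test were *S100P* in HCT116 and SW480 and *S100A14* in SW480, besides *CALB1*.

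**Figure D3:**
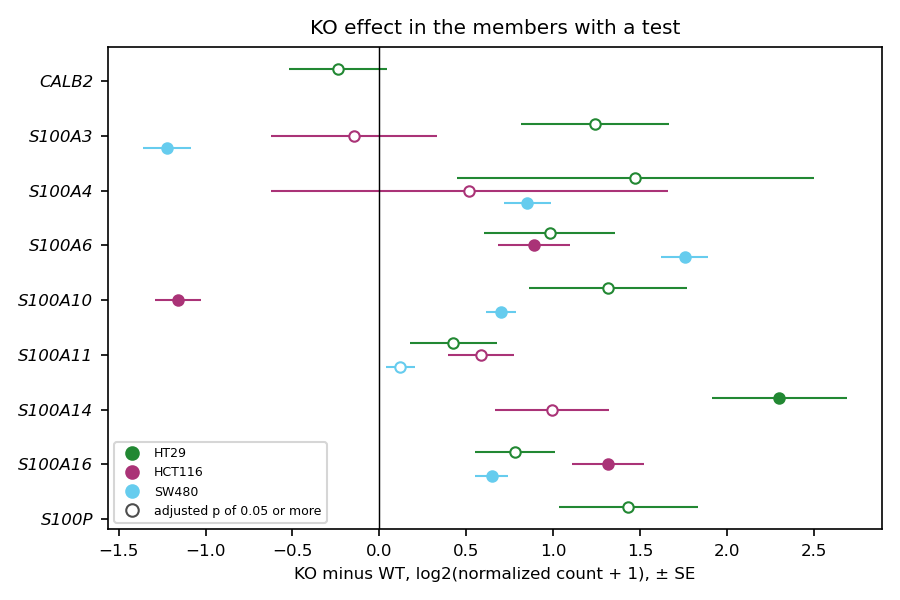
Log2 difference of KO to WT (log2 of normalized count plus 1, point ± SE) for the members with a test in each line. Filled points had an adjusted p under 0.05. *S100A10* lay at −1.16 in HCT116 and at 1.32 and 0.70 in HT29 and SW480, and *S100A3* at −1.22 in SW480 and 1.24 in HT29.

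*S100A6*, which encodes calcyclin, a partner of the ubiquitin-ligase adaptor CACYBP, was higher in KO clones of HCT116 and SW480. In SW480 the WT libraries had 9134, 8480, 7310 and 6597 normalized counts (WT 4A, 4B, 5A, 5B) and the KO libraries 22695, 22876, 31346 and 29940 (KO 17A, 17B, 21A, 21B). All KO libraries were above all WT libraries, with a log2 difference of 1.76 ± 0.14 (SE, limma, adjusted p = 3.16e-06). In HCT116 the WT libraries had 18769, 13784, 11271 and 8859 (WT 4A, 4B, 6A, 6B) and the KO libraries 24371, 22940, 28698 and 19102 (KO 44A, 44B, 47A, 47B). They did not overlap, with a difference of 0.89 ± 0.21 (adjusted p = 0.018), although this call was lost without WT 6A (adjusted p = 0.0545), without clone WT 6 (0.122), without KO 44 (0.0811), with clones as random effects (0.0537), with their reads summed (0.143) and without the filter on low values (0.118). In HT29, KO libraries had 61361, 50080, 55455 and 160052 against 25640, 32952, 43831 and 48622 in WT libraries, which did not overlap, with a difference of 0.98 ± 0.38 that did not pass the test (adjusted p = 0.241). Without KO 38B the difference was 0.60 (adjusted p = 0.218).

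*S100A10*, the partner of annexin A2, changed in opposite directions in HCT116 and SW480. In HCT116 the WT libraries had 8122, 7576, 9103 and 9016 normalized counts and the KO libraries 3795, 2890, 4386 and 4240. KO clones were lower without overlap by −1.16 ± 0.13 (SE, limma, adjusted p = 0.000232), which held in each of the 22 alternatives. In SW480, 13142, 12439, 10916 and 10524 in WT libraries stood against 18585, 19446, 20479 and 17696 in KO libraries, which was higher without overlap by 0.70 ± 0.08 (adjusted p = 6.83e-05). In HT29, 8401, 9693, 12739 and 9732 in WT libraries stood against 15512, 13372, 28589 and 65872 in KO libraries. These did not overlap, but the difference of 1.32 ± 0.45 did not pass in limma (adjusted p = 0.19) except without clone KO 28 (adjusted p = 0.0198), and the 2 libraries of KO 38 were above those of KO 28. *ANXA2*, the gene of annexin A2, singled out after its values were seen, was higher in HCT116 KO clones by 0.36 ± 0.09 (adjusted p = 0.0225), with 44512 ± 3631 (SD, n = 4) in WT and 57035 ± 4012 in KO libraries, and did not pass in HT29 (0.37 ± 0.22, adjusted p = 0.435) or SW480 (0.08 ± 0.10, adjusted p = 0.516).

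*S100A16*, an S100 protein with wide tissue expression, was higher in KO clones of HCT116 and SW480. The HCT116 libraries had 6523, 4717, 3573 and 3085 in WT and 11855, 10620, 11862 and 8700 in KO, without overlap and with a log2 difference of 1.31 ± 0.21 (SE, limma, adjusted p = 0.00232). This call was lost with the reads of each clone summed (adjusted p = 0.0755). In SW480, 3875, 3515, 3184 and 3197 in WT libraries and 4756, 4997, 6012 and 5820 in KO libraries gave 0.65 ± 0.10 (adjusted p = 0.000308), also without overlap. In HT29 the libraries had 6571, 8538, 6836 and 5824 in WT and 10469, 8810, 11747 and 17969 in KO, which did not overlap, and the difference of 0.78 ± 0.23 did not pass in limma (adjusted p = 0.132).

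*S100A14*, the neighbour of *S100A16* and an epithelial S100 gene, was the member called in HT29. The WT libraries had 808, 942, 761 and 693 normalized counts (WT 11A, 11B, 40A, 40B) and the KO libraries 2677, 2443, 3904 and 9361 (KO 28A, 28B, 38A, 38B). KO clones were higher without overlap by 2.30 ± 0.39 (SE, limma, adjusted p = 0.019), and by 1.89 without KO 38B (adjusted p = 0.00407). The call was lost without WT 11A, WT 40A, WT 40B or KO 38A (adjusted p from 0.0587 to 0.0656), without clone WT 11 (0.0804) or WT 40 (0.144), with clones as random effects (0.0858) and with the reads of each clone summed (0.536). In HCT116 the libraries had 6914, 5470, 2862 and 2368 in WT and 7148, 6550, 10050 and 8596 in KO. These overlapped at WT 4A, and the difference of 0.99 ± 0.33 did not pass in limma (adjusted p = 0.0786). It passed in DESeq2 (0.88, adjusted p = 0.0199), without clone WT 4 (1.61, adjusted p = 0.000845) and without WT 4A (1.26, adjusted p = 0.024).

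*S100A3* and *S100A4*, which lie in the same stretch of chromosome 1, moved in opposite directions in SW480. *S100A3* had 2452, 2420, 1928 and 1631 normalized counts in SW480 WT libraries and 889, 804, 1057 and 835 in KO libraries, which was lower without overlap by −1.22 ± 0.14 (SE, limma, adjusted p = 4.83e-05). *S100A4*, whose protein binds non-muscle myosin and is known from metastasis studies, had 11656, 10748, 13329 and 12024 in SW480 WT and 17932, 18116, 26445 and 24870 in KO libraries, which was higher without overlap by 0.85 ± 0.13 (adjusted p = 0.000476). In HCT116 neither passed, and their KO clones lay on either side of the WT clones. *S100A4* had 2040, 1668, 1409 and 1007 in WT libraries, 9300 and 8614 in KO 44, and 484 and 523 in KO 47. *S100A3* had 153, 121, 105 and 84.7 in WT libraries, 194 and 214 in KO 44, and 49.2 and 53.3 in KO 47. Without KO 47 the difference of KO to WT was 2.59 (adjusted p = 9.02e-05) for *S100A4* and 0.84 (adjusted p = 0.0381) for *S100A3*, and without KO 44 it was −1.56 (adjusted p = 0.00431) and −1.13 (adjusted p = 0.0335).

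In HT29 the clones of *S100A4* differed within WT. WT 11 had 2462 and 3082 normalized counts, WT 40 had 47044 and 47868, KO 28 had 44166 and 34011, and KO 38 had 14541 and 46404. KO and WT libraries overlapped, with a log2 difference of 1.47 ± 1.03 (SE, limma, adjusted p = 0.502) that became 3.53 (adjusted p = 0.0223) without clone WT 40 and −0.58 without clone WT 11. *S100A3* had 43.2, 35.5, 39.5 and 42.6 in HT29 WT libraries and 85.5, 47.9, 93.0 and 222 in KO libraries. They did not overlap, but the difference of 1.24 ± 0.43 did not pass in limma (adjusted p = 0.189).

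**Figure D4:**
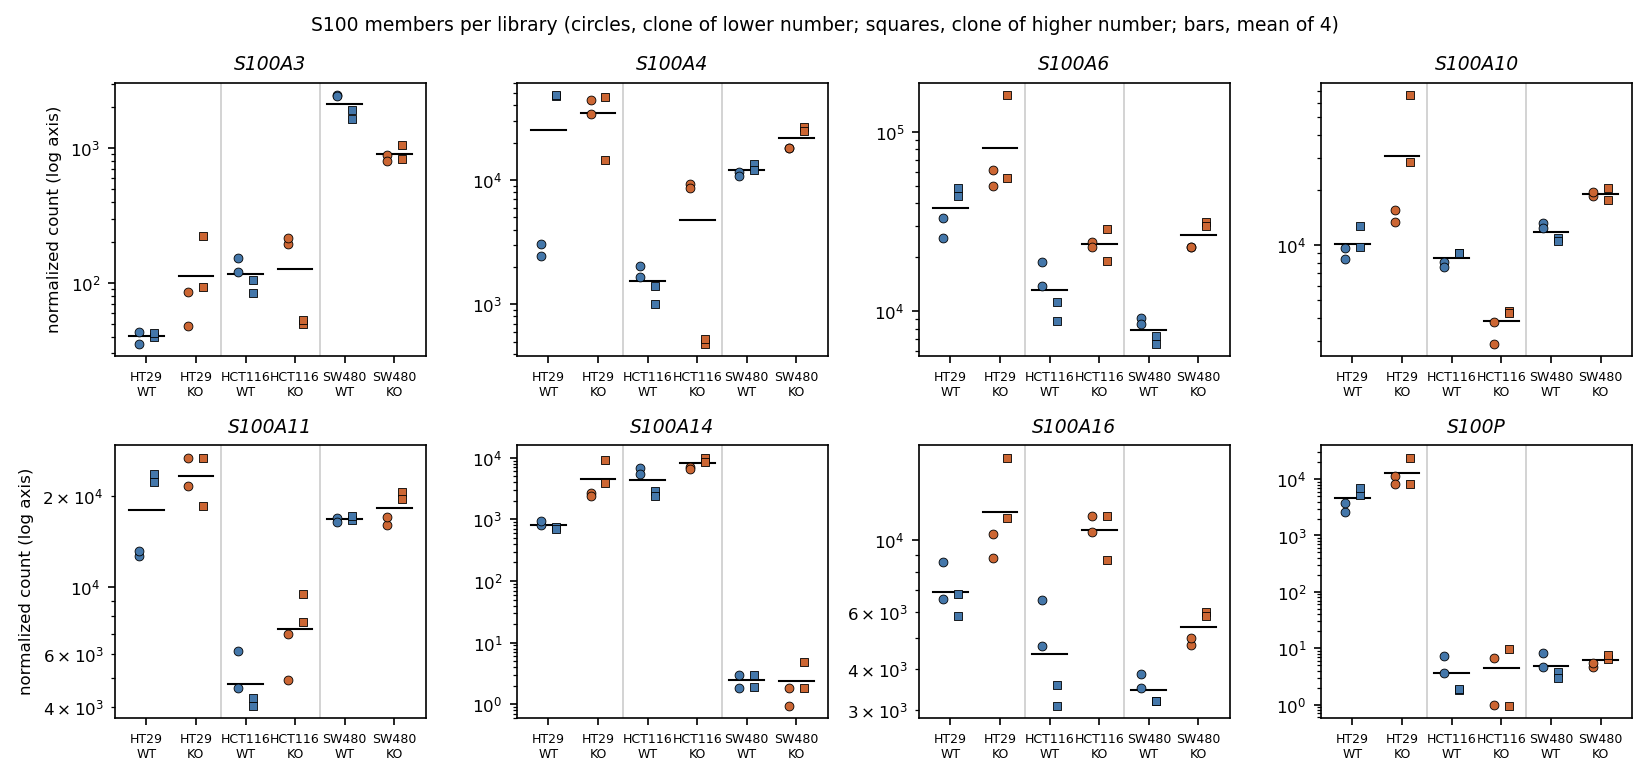
Normalized counts of the 8 S100 members per library, on log axes. Circles and squares are the clones of lower and higher number of each line and genotype, and bars are means of 4 libraries. The 2 WT clones of HT29 and the 2 KO clones of HCT116 are far apart in *S100A4*, and KO and WT do not overlap in *S100A6* in any line.

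*S100A11*, the gene of calgizzarin, a partner of annexin A1, did not pass the main test in any line. Its libraries had 12644, 13187, 22273 and 23638 normalized counts in HT29 WT and 26831, 21558, 18516 and 26765 in HT29 KO, with overlap and a log2 difference of 0.43 ± 0.25 (SE, limma, adjusted p = 0.431). In HCT116 they had 6120, 4638, 4287 and 4041 in WT and 6999, 4934, 9482 and 7644 in KO. The difference of 0.59 ± 0.19 had an adjusted p of 0.0636, and of 0.0423 with the round as a paired block, the rounds pairing the HCT116 libraries. It also passed in DESeq2 (adjusted p = 0.02), without the filter on low values (1.25e-05), without WT 4A (0.0316), without KO 44B (0.0149) and without clone KO 44 (0.0165). In SW480 WT libraries ranged from 16377 to 17131 and KO libraries from 16027 to 20653, with 0.12 ± 0.08 (adjusted p = 0.255), and with 0.26 (adjusted p = 0.00639) without clone KO 17. *S100P* was detected at high levels in HT29 alone, with 2637, 3735, 5150 and 6902 in WT and 11182, 8332, 8344 and 23995 in KO libraries. These did not overlap, and the difference of 1.43 ± 0.40 did not pass in limma (adjusted p = 0.111), but did in DESeq2 (adjusted p = 0.0129). KO libraries of HCT116 had 0.952 to 9.63 and those of SW480 4.70 to 7.68, overlapping their WT libraries. The 8 S100 members together held 0.231% to 0.513% of the reads in HT29 WT and 0.499% to 1.09% in HT29 KO libraries, 0.103% to 0.189% and 0.177% to 0.243% in HCT116, and 0.200% to 0.216% and 0.314% to 0.408% in SW480.

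The KO effects themselves were compared between lines in a fit over the 24 libraries, leaving out *CALB2*. All groups share 1 estimate of the spread in this fit, so that HT29 libraries also enter the SE of HCT116 against SW480. *S100A10* differed between HT29 and HCT116, with a log2 difference of the effects of 2.48 ± 0.42 (SE, limma, adjusted p = 0.000618), and between HCT116 and SW480, with −1.86 ± 0.42 (adjusted p = 0.00394). *S100A3* differed between HT29 and SW480, with 2.46 ± 0.58 (adjusted p = 0.00455). Thus 1 of 7, 1 of 6 and 1 of 6 tested members differed for HT29 against HCT116, HT29 against SW480 and HCT116 against SW480, beside 7.56%, 14.5% and 12.5% of all tested genes. With the reads of each clone summed none passed, with adjusted p of 0.158, 0.157 and 0.159. Without HT29 KO 38B, *S100A6* differed too, between HT29 and SW480 (−1.16, adjusted p = 0.00999) and between HCT116 and SW480 (−0.86, adjusted p = 0.0445). The latter estimate holds no HT29 library and was also −0.86 in the main fit (adjusted p = 0.183 in limma), so that the effect itself did not change. Without HCT116 WT 4A, *S100A16* differed between HCT116 and SW480 (0.87, adjusted p = 0.0333).

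Clones of the same genotype differed in members of both families, in tests whose error comes from the rounds alone. In HT29, 1 of 9 tested members differed between WT 11 and WT 40 (9.02% of all genes), namely *S100A4* with a log2 difference of −4.11 ± 0.47 (SE, limma, adjusted p = 0.0016). Between KO 28 and KO 38, 2 of 9 differed (16% of all genes), *S100A10* with −1.59 ± 0.36 (adjusted p = 0.0244) besides *CALB2*. In HCT116, *S100A14* alone of 8 differed between WT 4 and WT 6 (2.61% of all genes), with 1.24 ± 0.15 (adjusted p = 0.00189). Between KO 44 and KO 47, 3 of 8 differed (7.16%), *S100A4* with 4.15 ± 0.17 (adjusted p = 1.01e-06) and *S100A3* with 1.97 ± 0.23 (adjusted p = 0.000721) besides *CALB2*. In SW480, 4 of 7 differed between WT 4 and WT 5 (8.88%), *CALB2* with its few reads being counted among them, and 5 of 7 between KO 17 and KO 21 (28%). The members tested in both genotypes of HCT116 and SW480 include *CALB2*, and these counts are given as a description. In WT clones of HCT116 *CALB2* had 9 to 34 reads and passed the filter on low values only through the KO libraries. Among the S100 members these SW480 differences were at most 0.51 in size, the largest being −0.51 ± 0.07 for *S100A4* between the KO clones (adjusted p = 7.45e-05).

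Other S100 genes were called in SW480 alone. Of 13 listed, 3 were tested in each line, and all 3 were higher in SW480 KO clones, where 26.1% of all tested genes were higher. *S100A2*, an epithelial S100 gene, went from 1612 ± 331 (SD, n = 4) in WT to 13333 ± 3366 in KO libraries, with a log2 difference of 3.03 ± 0.19 (SE, limma, adjusted p = 1.15e-06). *S100A13* (1.26 ± 0.20, adjusted p = 0.000615) shares exon bases with *S100A1* on the other strand, and *S100A5* (1.26 ± 0.24, adjusted p = 0.00145) lies between *S100A6* and *S100A4*. In HT29 and HCT116, limma called 0 of 3, none had an unadjusted p under 0.05, and DESeq2 and edgeR with TMM called 0 as well, whereas 1 was called in HCT116 without clone KO 44 or without clone KO 47. A difference between lines was not tested for these genes.

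Among 50 other EF-hand sensors and buffers, 1 of 37 tested was higher in HT29 KO clones, 10 of 35 were higher and 1 lower in HCT116, and 18 of 37 were higher and 6 lower in SW480, with median log2 differences of 0.19, 0.13 and 0.25. Over all tested genes 2.08% (HT29), 8.05% (HCT116) and 26.1% (SW480) were higher and 0.476%, 5.93% and 22.1% lower. With the reads of each clone summed the genes changed in the list numbered 0, 3 and 14, and without clone WT 6 they numbered 6 in HCT116. *NUCB2*, the gene of a calcium-binding protein of the Golgi and secretory route, was the HT29 gene (1.38 ± 0.28, SE, limma, adjusted p = 0.0408). In HT29 no gene of the list was called with clones as random effects, with the round as a block, without clone WT 40 or with any 1 library other than KO 38B left out, while DESeq2 called 3. *HPCAL1*, a neuronal calcium sensor gene, was higher in HCT116 (1.11 ± 0.15, adjusted p = 0.000607) and in SW480 (2.19 ± 0.12, adjusted p = 2.2e-07), from 3134 ± 605 (SD, n = 4) to 14113 ± 944 normalized counts in the latter. *TESC*, the gene of tescalcin, was higher in HCT116 by 1.64 ± 0.23 (adjusted p = 0.00108) and lower in SW480 by −1.96 ± 0.63 (adjusted p = 0.0289), *EFHD2* was higher in HCT116 (1.64 ± 0.29, adjusted p = 0.00636), and *NCALD* was lower in SW480 (−4.03 ± 0.36, adjusted p = 1.35e-05).

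Of 20 binding partners and receptors of S100 proteins, 19, 18 and 20 were tested. In HT29 limma called none (2.08% of all tested genes were higher and 0.476% lower). At an unadjusted p under 0.05 there was 1, and the share of all genes at that threshold was not counted. DESeq2 called 1 and edgeR with TMM 0, and 1 was called without KO 38B. In HCT116, 2 were higher and none lower (8.05% and 5.93% of all tested genes). The higher ones included *ANXA11* with 1.11 ± 0.12 (SE, adjusted p = 0.000147 in limma). The HCT116 count was 4 with the round as a paired block and in DESeq2, and 1 with clones as random effects or summed and without WT 4B, WT 6A, KO 44A or clone KO 44. In SW480, 13 were higher and 1 lower (26.1% and 22.1% of all tested genes), and 9 changed with clones summed. The median log2 differences were 0.08, 0.0023 and 0.50 in HT29, HCT116 and SW480. *TLR4*, a receptor of the innate immune system, rose in SW480 from 779 ± 304 (SD, n = 4) to 3030 ± 236 normalized counts (2.04 ± 0.25, adjusted p = 0.000111), *ANXA1*, the gene of the annexin that S100A11 binds, by 1.50 ± 0.41 (adjusted p = 0.0162), and *DLC1* by 1.31 ± 0.16 (adjusted p = 7.19e-05).

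Of 28 calcium channel, pump and vitamin D genes, 2 of 21 tested were higher in HT29 KO clones, 3 of 20 higher and 2 lower in HCT116, and 11 of 21 higher and 3 lower in SW480, with median log2 differences of 0.05, 0.13 and 0.34. Over all tested genes 2.08% (HT29), 8.05% (HCT116) and 26.1% (SW480) were higher and 0.476%, 5.93% and 22.1% lower. The HT29 count was 1 in edgeR with TMM, with clones as random effects, with the round as a block and with any 1 library left out, and 0 with clones summed. The HCT116 count of 5 was 2 with clones summed and without KO 44A, KO 44B, clone KO 44 or clone WT 6, and 3 without WT 4B, WT 6A or WT 6B. In SW480, 9 changed with clones summed. *CYP24A1*, the enzyme that degrades active vitamin D, was lower in HCT116 KO clones, from 1305 ± 501 (SD, n = 4) to 15.4 ± 11.4 normalized counts (−6.55 ± 0.50, SE, limma, adjusted p = 2.97e-05), and in SW480 KO clones, from 199.7 ± 31.7 to 61.4 ± 32.3 (−1.84 ± 0.36, adjusted p = 0.00193). *ATP2B4*, a calcium pump of the plasma membrane, was higher in HT29 (1.90 ± 0.41, adjusted p = 0.0488) and SW480 (1.64 ± 0.14, adjusted p = 5.48e-06). The endoplasmic reticulum pump gene *ATP2A3* was higher in HT29 KO clones, from 48.4 ± 28.0 to 1399 ± 387 (4.94 ± 0.39, adjusted p = 0.000409). The inositol trisphosphate receptor genes *ITPR1* and *ITPR2* went apart in HCT116, with −1.11 ± 0.27 (adjusted p = 0.0198) and 1.15 ± 0.29 (adjusted p = 0.0214), and the channel gene *RYR2* was higher in SW480 (1.80 ± 0.49, adjusted p = 0.014).

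Over the means of the 12 clones, *MGLL*, *ARHGDIB*, *ZMIZ1*, *SLC47A2* and *SYT8* were, among 18384 genes outside the members, those most like *CALB2*, with Pearson's r of log2 values of 0.956, 0.955, 0.948, 0.941 and 0.936. The clones share lines and rounds, and the rise in KO clones of HCT116 and SW480 for which *CALB2* was chosen enters these values, as do the differences between lines. *ARHGDIB* had 1432 to 1801 normalized counts in HT29 WT and 1669 to 4852 in HT29 KO libraries, 31.4 to 55.4 and 106 to 535 in HCT116, and 8.81 to 13.1 and 285 to 866 in SW480. *MGLL*, a monoglyceride lipase gene, had 121 to 347 and 1250 to 2233 in HCT116 WT and KO, and 337 to 459 and 1031 to 1786 in SW480. *SLC47A2* had at most 3.71 in HCT116 WT and 4.59 in SW480 WT libraries, and at most 17.1 and 9.17 in their KO libraries. *SYT8* had at most 4.76 in HCT116 WT and 5.05 in SW480 WT libraries. The r of *SLC47A2* and *SYT8* therefore rests in part on few reads. Among the members, *S100A6* was closest to *CALB2* over the 12 clones (r = 0.884), which rests in part on the same chosen rise. *S100A6* and *S100A16* had r = 0.819 with each other after each line's mean was taken off, and *S100A10* and *S100A16* had 0.0788.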

How the data were processed

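RNA of 24 libraries from 3 cell lines was sequenced as 150-base read pairs from TruSeq libraries, which do not mark strand. Per the labels and methods, the authors aligned reads with STAR 2.7.5b to GRCh37, counted them per gene with featureCounts 2.0.1 and normalized with DESeq2 2.11.40.6. The per-library values deposited by the authors are signal, namely the reads of a gene over the size factor of the library. Whole reads were recovered from the smallest step of each library, and 100% of values were whole within 0.01. Tables of the authors' own comparisons (means, log2 fold changes, p-values) were not used here. Identifiers were matched to symbols (95.8%) and exon lengths with GENCODE on GRCh37.

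The main test was limma 3.58.1 with trend and robust variances on log2 of the value plus 1, for genes at 10 or more in at least 4 libraries of the line, or of the 24 for comparisons between lines. P-values were adjusted over all tested genes by Benjamini-Hochberg, and 0.05 was the threshold. They measure the spread between libraries, of which 2 come from each clone. Comparisons between lines use an estimate of the spread shared by all groups of line and genotype. In comparisons between clones of the same genotype the error comes from the rounds alone. The scripts were tested on simulated data. Alternatives used DESeq2 1.42.0, edgeR 4.0.16 with TMM or RLE, clones summed or as random effects, rounds as a block, other filters and pseudocounts, and each library and clone left out. Differences between rounds correlated over 0.1 across genes in 6 of 6 pairs of clones in HCT116, 2 of 6 in HT29 and 1 of 6 in SW480, so that rounds pair the libraries in HCT116 only. Values of 3 reads or fewer are within counting error of 0.

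The members and gene lists were chosen with earlier results of these data known. Genes named from the other lists were, per list and line, up to 3 DEGs (absolute log2 fold change over 1) with the largest change and a mean of at least 100. R 4.3.3, Python 3.11.15, numpy 2.4.6, pandas 2.3.3 and matplotlib 3.10.9 were used.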

Additional observations from a re-analysis of the deposited data

Results flagged for a closer look

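The KO effect on *S100A10* differed between HT29 and HCT116 by 2.48 and between HCT116 and SW480 by −1.86 on the log2 scale (adjusted p = 0.000618 and 0.00394 in limma), being negative in HCT116 alone. That on *S100A3* differed between HT29 and SW480 by 2.46 (adjusted p = 0.00455 in limma). Among 59 groups of 4 libraries examined, 3 had a library whose gap to the nearest library, divided by the range, exceeded Dixon's 95% critical value, and chance gives this in about 1 of 20 groups. These were *S100A6* in HT29 KO 38B, with 160052 normalized counts, *CALB1* in HCT116 KO 47A, with 12.8, and *CALB1* in SW480 KO 17A, with 5.64.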

How the results depend on the processing

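Among the KO effects on members that were tested, direction turned under an alternative with a call in HCT116 alone, for *S100A4* without clone KO 44 (−1.56) and *S100A3* without clone KO 47 (0.84). The 5 members called in SW480 and *S100A10* in HCT116 kept their calls under each of the 22 alternatives. The genes changed numbered 382 (HT29), 2154 (HCT116) and 7857 (SW480). DESeq2 gave 1229 in HT29 and 2961 in HCT116, the reads of a clone summed 0, 389 and 4007 (978 HT29 genes had an unadjusted p under 0.05), and clones as random effects 121 in HT29 and 1067 in HCT116. A filter of 10 in every library gave 234 in HT29. Leaving out clone WT 40 or KO 38 gave 213 and 809 in HT29, and leaving out clone WT 6 or KO 44 gave 963 and 1226 in HCT116. Leaving out 1 library gave 115 to 344 in HT29 and 1301 to 2481 in HCT116. Members changed in HT29 (1 in the main test) numbered 5 in DESeq2, 0 with the reads of a clone summed or clones as random effects (3 and 4 at an unadjusted p under 0.05, beside 978 of 16687 and 1363 of 14921 genes), 0 without clone WT 11, 2 without clone KO 28 and 0 to 1 without a library. In HCT116 (3 in the main test) they numbered 5 in DESeq2, 1 with clones summed, 5 without clone KO 44 or KO 47, and 2 to 5 without a library. Taking the round as a paired block left 223 genes and 1 member called in HT29 cells, against 2457 with 4 for HCT116 and 7425 with 5 for SW480, and apart from *S100A11* in HCT116 no member changed its call. The rounds are not paired in HT29 and SW480.

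Members whose KO effect differed between lines (1 in each comparison) numbered 2 for HT29 against HCT116 in edgeR with TMM, 0 in each comparison with clones summed, and 1 to 2 for the comparisons with SW480 without a library. Between WT lines, clones summed gave 4 members for HT29 against HCT116 (7 in the main test) and 3 for HCT116 against SW480 (5). Of the 5 genes most like *CALB2*, 0 were also among the closest 5 by Spearman's rho and 3 over the 24 libraries. The cause of these shifts was not tested, except that summing clones leaves 4 libraries per line. Values of *CALB1*, and of *S100P* and *S100A14* outside the lines that express them, rest on few reads.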
